A study of Caenorhabditis elegans with 18 samples.

Results

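The 36 genes described here make the chromosomes of Caenorhabditis elegans ready for meiosis: they hold sister chromatids together, build the chromosome axis, pair and synapse the homologues, cut and repair the DNA, and mark crossovers. They were chosen by name, not by a measured value, though earlier results of these data were known at the time. All 36 names were found in the annotation of the 46748 gene identifiers of the count table. All 36 also passed the filter on low counts, as 14735 genes did in all. By role they comprise 5 cohesin genes, 6 axis genes, 4 synapsis genes, 8 pairing genes, 3 break genes, 6 repair genes and 4 crossover genes. The RNA was that of entire N2 hermaphrodites (the wild-type strain), so germ cells and somatic tissues were measured as 1 mixture. The worms carried the label L4440, M05B5.5 or T14F9.5 and an age of 1 day or 5 days, with 3 libraries in each of the 6 groups and 18 in all. L4440 is the empty RNAi feeding vector and served as the control, M05B5.5 is the gene hlh-2 and T14F9.5 is the gene lin-32, both basic helix-loop-helix transcription factors. The labels do not say from which event age was counted, how the worms were fed or kept, or whether replicate libraries were grown as cultures of their own. The p-values therefore measure only the spread between these libraries, which may be technical.

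In meiosis each chromosome is copied and its sister copies are tied together by cohesin rings, along which proteins of the HORMA family assemble an axis. In the worm, homologues find each other through pairing centres, stretches near one chromosome end that are bound by the zinc finger proteins HIM-8 and ZIM and moved by dynein through the SUN-KASH bridge of the nuclear envelope. The synaptonemal complex zips the homologues together, SPO-11 cuts the DNA, and the cuts are repaired from the partner chromosome, with as a rule a single crossover for each pair. In an adult hermaphrodite these steps run continuously along the gonad, from the mitotic zone through pachytene to the oocytes.

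Library depth ranged from 27024193 to 43016293 counts, of which the 36 genes took 0.226% to 0.425%. Within each age the target of the M05B5.5 plasmid was lower than in the control without overlap: hlh-2 stood at 12.7, 12.2 and 11.4 counts-per-million (CPM) in M05B5.5 at day 1 and at 46.4, 23.7 and 53.9 CPM in L4440 of that age. At day 5 it stood at 20.9, 31.1 and 12.5 CPM against 58.6, 59.3 and 53.8 CPM. By edgeR's quasi-likelihood test the log2 fold change of hlh-2 was -1.77 ± 0.29 (SE, adjusted p = 0.0709) at day 1. At day 5 it was -1.41 ± 0.29 (adjusted p = 0.916). The target itself thus did not pass an adjusted p under 0.05 at either age. The target of the T14F9.5 plasmid was not lower: lin-32 stood at 2.45, 2.18 and 1.96 CPM in the day-1 libraries labelled T14F9.5 against 1.74, 2.57 and 1.83 CPM in L4440, and at day 5 at 1.06, 4.92 and 5.29 CPM against 0.952, 0.542 and 0.234 CPM. Every direction given below for T14F9.5 therefore belongs to the libraries labelled so, not to a measured loss of lin-32. Some libraries stood apart from their groups. Principal component 1 (47.3% of the variance) placed the first day-5 libraries of the 3 plasmids at -19.4 to -22.5, and the remaining day-5 libraries at 52.9 to 70.2. L4440 day-1 library 2 had a value of -83.0 there, and a slope of -0.657 in relative log2 CPM with each doubling in gene length, where the other libraries had slopes from -0.243 to 0.134. The next lowest slopes were -0.243 in L4440 day-1 library 1 and -0.174 in the day-1 library 2 labelled T14F9.5. All remaining slopes were -0.016 or higher. The descriptions give 1 and the same index and lane for L4440 day-1 library 1 and for the day-1 library 2 labelled T14F9.5. Age results are given with and without these libraries, and many of the named day-1 differences also without L4440 day-1 library 2.

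Among the 14735 genes tested the meiotic genes stood high, with a median at percentile 78.2 of the level per kilobase of exon and a range from percentile 43.1 to 91.6. On that scale, the mean over the 18 libraries, air-2 led with 112 ± 12.1 CPM per kilobase (SD over 18 libraries), and it encodes the Aurora B kinase that releases cohesin at the meiotic divisions. The axis protein gene him-3 followed with 106 ± 14.3 CPM per kilobase, and sun-1, the nuclear envelope SUN protein that links chromosomes to the cytoskeleton, with 101 ± 10.8 CPM per kilobase. These 3 levels did not differ beyond their spread over libraries. At the other end, chk-2, the kinase that starts pairing and break formation, stood at 4.12 ± 1.26 CPM per kilobase. The next lowest were him-14 (MSH4) with 12.6 ± 1.17 CPM per kilobase and msh-5 with 12.8 ± 2.03 CPM per kilobase, which encode the partners of the MutS-gamma dimer that stabilises crossover intermediates, and their levels did not differ beyond their spread. Between these ends the break genes him-5 (18.0 ± 3.41 CPM per kilobase) and spo-11 (40.9 ± 7.85 CPM per kilobase) lay below most axis genes. The remaining break gene, him-17, stood at 60.4 ± 7.07 CPM per kilobase, within the range of the axis genes. spo-11 encodes the enzyme that cuts the DNA, and HIM-5 is needed for breaks on the X chromosome.

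Ratios of level per kilobase between genes whose products work as partners varied to different degrees. The ratio of him-14 to msh-5 was 0.994 ± 0.0882 (SD over 18 libraries), with a range from 0.904 to 1.19. The ratio of brc-1 to brd-1, the worm BRCA1 and BARD1 that form 1 ubiquitin ligase, was 0.840 ± 0.0939, lowest at 0.526 in L4440 day-1 library 2 and from 0.758 to 0.943 in the other libraries. That of mre-11 to rad-50, 2 subunits of the complex that trims break ends, was 1.37 ± 0.145 and ran from 1.18 to 1.72. The cohesin pair him-1 and scc-3 had a ratio of 1.29 ± 0.188, from 0.924 to 1.502. It was lowest in L4440 day-1 library 2, ran from 1.05 to 1.19 in day-5 libraries 2 and 3 of the 3 plasmids, and from 1.34 to 1.502 elsewhere. The widest spread was that of sun-1 to zyg-12, the KASH partner of SUN-1, at 1.58 ± 0.590 with a highest value of 3.89 in L4440 day-1 library 2, and it ranged from 1.30 to 1.76 over the other libraries. The HORMA genes htp-1 and htp-2 (ratio 1.71 ± 0.114) and the cohesin genes coh-3 and coh-4 (1.71 ± 0.136) are pairs of close copies. How reads that fit both copies were counted is not given in the sources used here, so the split between the copies is uncertain.

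The 36 genes lie on the autosomes only: 8 on chromosome I, 2 on II, 4 on III, 11 on IV and 11 on V (WBcel235), while the X chromosome holds 14.5% of all tested genes. The pairing centre genes zim-1, zim-2, zim-3 and him-8 form a row on the plus strand of chromosome IV from 10547086 to 10563974, and zim-1 and zim-2 share 223 bases of exon, which is 11.02% of the exon length of zim-1. Exons of other genes overlap 16.93% of the exon length of syp-1 (F13A7.14, same strand), 15.93% of coh-4 (Y45G5AM.7, same strand) and 14.02% of cosa-1 (Y71H2AM.12, opposite strand). Overlaps of 5.86% to 6.53% concern syp-3, lab-1 and him-14. The library kit does not mark the strand and the setting of the counter is not given, so part of the counts of these genes may belong to their neighbours.

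**Figure D1:**
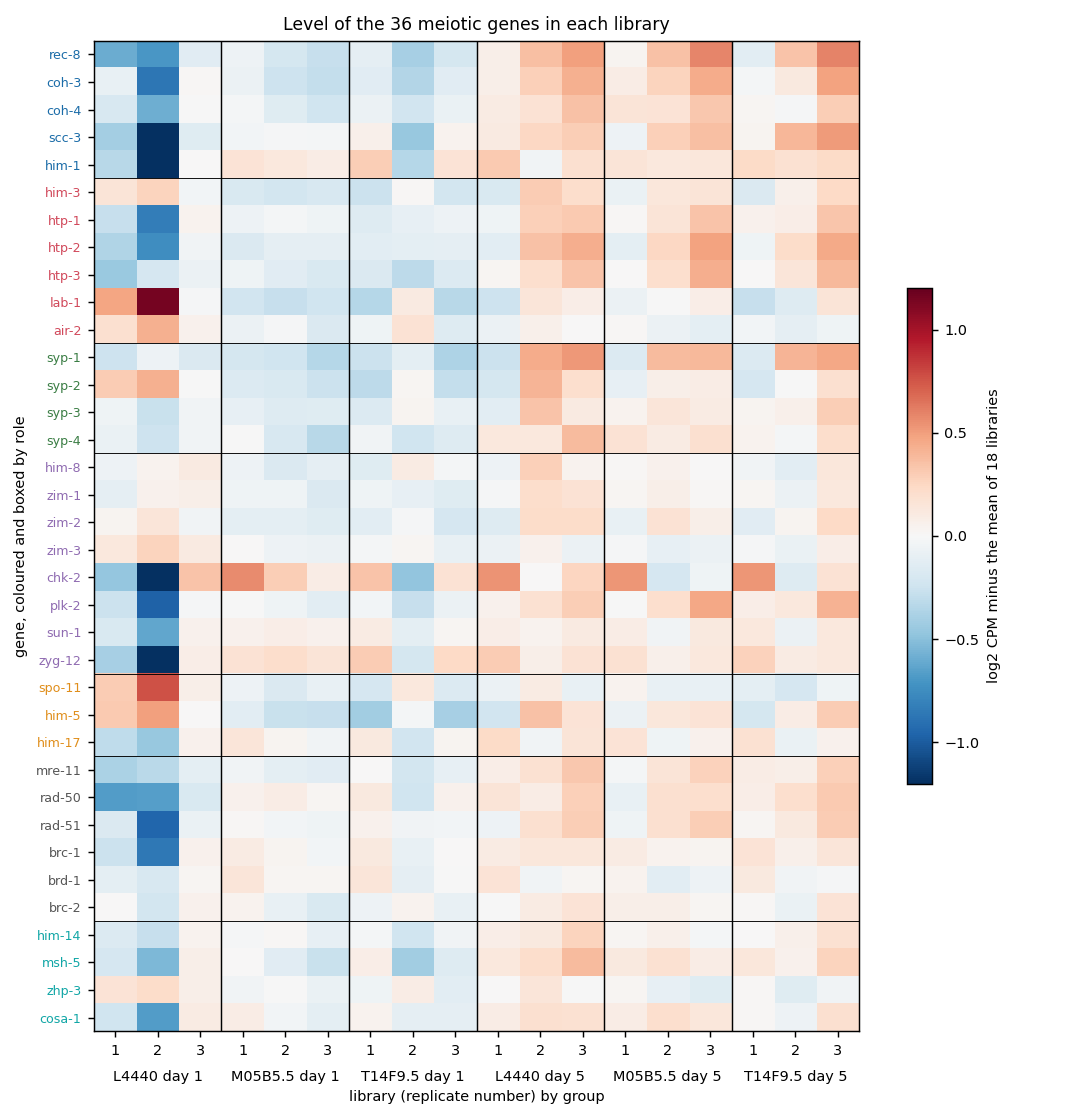
Level of each of the 36 genes (rows, grouped and coloured by role) in each of the 18 libraries (columns, grouped by plasmid and age), as log2 CPM minus the gene's mean over 18 libraries, with the colour scale ending at -1.2 and 1.2. L4440 day-1 library 2 holds the lowest value of 20 genes and the highest of 7, and day-5 libraries 2 and 3 are red for most cohesin and axis genes.

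Age was compared within each plasmid, day 5 against day 1, to ask which meiotic transcripts differ between younger and older worms. In L4440, 5 of the 36 genes rose, by edgeR's quasi-likelihood test at a Benjamini-Hochberg adjusted p under 0.05, and 0 fell, with 20 higher and 3 lower at an unadjusted p under 0.05, beside 19% and 20.2% of all genes. Over all tested genes 15.8% passed in either direction, 6.72% higher and 9.11% lower. The median log2 fold change of the 36 genes was 0.37, against -0.03 over all genes, and 28 of the 36 were higher at day 5. The groups did not overlap for 13 genes that were higher and 1 that was lower, beside 15.6% and 16.5% of all genes. In M05B5.5 and in the libraries labelled T14F9.5, 0 of the 36 genes passed with edgeR, as did 0% of all genes. At an unadjusted p under 0.05, 6 were higher in M05B5.5 and 4 in T14F9.5, with 0 lower in either, beside 7.85% and 5.29% of all genes higher and 5.08% and 4.87% lower. DESeq2 called 16 genes higher and 1 lower in L4440, beside 14% and 13.5% of all genes. It called 0 in the other 2, where it called 0.702% and 0.0477% of all genes higher and 0.313% and 0.0272% lower. The medians were 0.18 and 0.17, with 30 and 33 of the 36 genes higher at day 5, and the groups did not overlap for 18 and 10 genes that were higher, beside 12.8% and 7.99% of all genes. The 3 age comparisons share no library, and 24 of the 36 genes (66.7%) were higher at day 5 in all 3, where 29.0% of all tested genes were. The direction in L4440 depended on the scaling: with upper-quartile factors 4 genes rose and 3 fell (5.54% and 14.4% of all genes), and when libraries were scaled to 30 germ line genes 0 rose and 5 fell (30.3% of all genes fell) and the median was -0.14. Those scalings moved the median of all genes to -0.16 and -0.56, and the median of the 36 genes stood above it by 0.41 and 0.42, where with RLE factors it stood above by 0.40. Scaled to the germ line genes, the cohesin median stayed positive at 0.29 and those of the other 6 roles were negative. In bulk RNA of whole worms, a change in the number of germ cells and a change in RNA for each cell cannot be told apart.

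The cohesin genes had the highest median of the 7 roles in L4440, 0.67 on the log2 scale, and 2 of 5 rose. rec-8, the meiotic kleisin that closes the cohesin ring, stood at 53.2, 49.5 and 72.9 CPM in the 3 day-1 libraries of L4440 and at 84.3, 103 and 113.01 CPM at day 5. Every day-5 library was above every day-1 library, and the log2 fold change was 0.77 ± 0.20 (SE, adjusted p = 0.0355). In M05B5.5 it stood at 76.97, 69.4 and 66.4 CPM at day 1 and at 82.1, 102 and 121 CPM at day 5, again without overlap, and the log2 fold change of 0.52 ± 0.20 did not pass (adjusted p = 0.337). In the libraries labelled T14F9.5 it stood at 74.6, 60.9 and 69.3 CPM and 73.3, 102 and 121 CPM, where the first day-5 library lay inside the day-1 range, with a log2 fold change of 0.53 ± 0.20 (adjusted p = 0.491). In each of the 3 plasmids the first day-5 library was the lowest of its group.

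scc-3, the STAG subunit of cohesin, rose in L4440 from 154, 87.5 and 184 CPM to 220.2, 242 and 251 CPM, or 0.74 ± 0.22 as log2 fold change (adjusted p = 0.0403). Its day-1 values spread more than 2-fold, with library 2 the lowest. In M05B5.5 scc-3 stood at 198, 201 and 201 CPM at day 1 and 196, 249 and 262 CPM at day 5 (adjusted p = 0.646), so the groups overlapped there. The other kleisin genes gave log2 fold changes in L4440 of 0.53 ± 0.20 for coh-3 (adjusted p = 0.0706) and 0.45 ± 0.15 for coh-4 (adjusted p = 0.0504), which did not pass although neither overlapped between the ages. him-1, the SMC1 arm of the ring, stood at 234, 91.8 and 298 CPM at day 1 and 367, 288 and 339 CPM at day 5 in L4440 (log2 fold change 0.67 ± 0.29, adjusted p = 0.0998). In M05B5.5 him-1 held 324 ± 8.80 CPM at day 1 and 326 ± 3.49 CPM at day 5 (SD, n = 3), a log2 fold change of 0.0087 ± 0.28.

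Among the axis genes 1 of 6 rose in L4440. htp-3, the HORMA protein that recruits the others to the axis, stood at 87.6, 103.97 and 114 CPM at day 1 and at 121, 138 and 151 CPM at day 5, without overlap, a log2 fold change of 0.43 ± 0.14 (adjusted p = 0.0492). It did not overlap between the ages in the other plasmids either, with log2 fold changes of 0.35 ± 0.14 in M05B5.5 (adjusted p = 0.348) and 0.40 ± 0.14 in the libraries labelled T14F9.5 (adjusted p = 0.491). The copies htp-1 and htp-2, which protect cohesion on the long arms, had log2 fold changes of 0.51 ± 0.17 and 0.59 ± 0.20 in L4440 (adjusted p = 0.0561 and 0.0509). him-3 was at -0.011 ± 0.14 there. The remaining axis genes were lower at day 5 in L4440 without passing: lab-1, which keeps Aurora B off the long arms, stood at 78.8, 127 and 56.5 CPM at day 1 and 48.0, 62.97 and 60.3 CPM at day 5, with library 2 of day 1 the highest of all 18. Its log2 fold change was -0.61 ± 0.23 (adjusted p = 0.0697), against 0.25 ± 0.23 in M05B5.5 (adjusted p = 0.627). air-2 was at -0.23 ± 0.11 in L4440.

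None of the 4 synapsis genes passed in L4440 with edgeR, with 1 higher at an unadjusted p under 0.05 and 1 called by DESeq2. They encode the central proteins of the synaptonemal complex. syp-4 was at 0.34 ± 0.11 (adjusted p = 0.0552), the lowest adjusted p of the 4, and did not overlap between the ages in any of the 3 plasmids. syp-1 divided the day-5 libraries: it stood at 53.8, 87.6 and 92.0 CPM in L4440, 57.3, 83.7 and 84.2 CPM in M05B5.5 and 57.2, 85.2 and 88.6 CPM in the libraries labelled T14F9.5. The first library of each lay near the day-1 values, which ran from 49.7 to 61.7 CPM over all plasmids, and the other 6 lay at 83.7 CPM and above. The log2 fold changes over all libraries were 0.43 ± 0.21, 0.49 ± 0.21 and 0.50 ± 0.21, in the same order of plasmids, and none passed. syp-2 was at -0.10 ± 0.16 in L4440 and at 0.22 ± 0.16 in M05B5.5, and syp-3 at 0.24 ± 0.14 and 0.23 ± 0.14.

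Of the repair genes 2 of 6 rose in L4440. mre-11, the nuclease of the end-trimming complex, stood at 121, 125 and 145 CPM at day 1 and 166, 179 and 197 CPM at day 5, a log2 fold change of 0.47 ± 0.12 (adjusted p = 0.0355), and it did not overlap between the ages in the other plasmids. Its partner rad-50 stood at 121, 122 and 170.2 CPM and 215, 205 and 234.98 CPM, or 0.67 ± 0.14 as log2 fold change (adjusted p = 0.0355). The difference of rad-50 was smaller elsewhere, 0.057 ± 0.14 in M05B5.5, where the day-1 libraries already held 199.6, 205 and 196 CPM. The recombinase rad-51, which pairs a broken strand with its partner chromosome, was at 0.50 ± 0.18 (adjusted p = 0.0625), brc-1 at 0.43 ± 0.16, brd-1 at 0.14 ± 0.10 and brc-2, the BRCA2 that loads RAD-51, at 0.14 ± 0.11 in L4440.

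None of the pairing, break and crossover genes passed in L4440 with edgeR, although 7 of these 15 were higher and 2 lower at an unadjusted p under 0.05 and DESeq2 called 4 higher and 1 lower. Among the pairing genes plk-2, the polo kinase of the pairing centres, was at 0.54 ± 0.19 (adjusted p = 0.0630) and sun-1 at 0.30 ± 0.14. The widest difference was that of chk-2, 0.75 ± 0.46, which rests on day-1 values of 6.99, 1.67 and 12.3 CPM. The pairing centre genes differed little: him-8, which binds the X, was at 0.063 ± 0.11, zim-1 at 0.12 ± 0.094, zim-2 at 0.06 ± 0.13 and zim-3 at -0.20 ± 0.092. zim-3 stood at 57.9, 63.9 and 56.9 CPM at day 1 and 50.5, 54.8 and 50.6 CPM at day 5 and was the 1 gene that was lower without overlap. Of the break genes spo-11 was at -0.43 ± 0.15 (adjusted p = 0.0586), him-5 at -0.17 ± 0.19, and him-17, a chromatin protein needed for breaks, at 0.34 ± 0.14. Of the crossover genes msh-5 was at 0.45 ± 0.16, cosa-1, the cyclin-like protein that marks each crossover, at 0.39 ± 0.16, him-14 at 0.28 ± 0.12 and zhp-3, a RING finger protein of crossover sites, at -0.10 ± 0.10. zhp-3 ran from 59.6 to 76.8 CPM over all 18 libraries, its highest value 1.29 times its lowest, and the spread of brd-1 alone was narrower among the 36 genes (1.28 times).

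**Figure D2:**
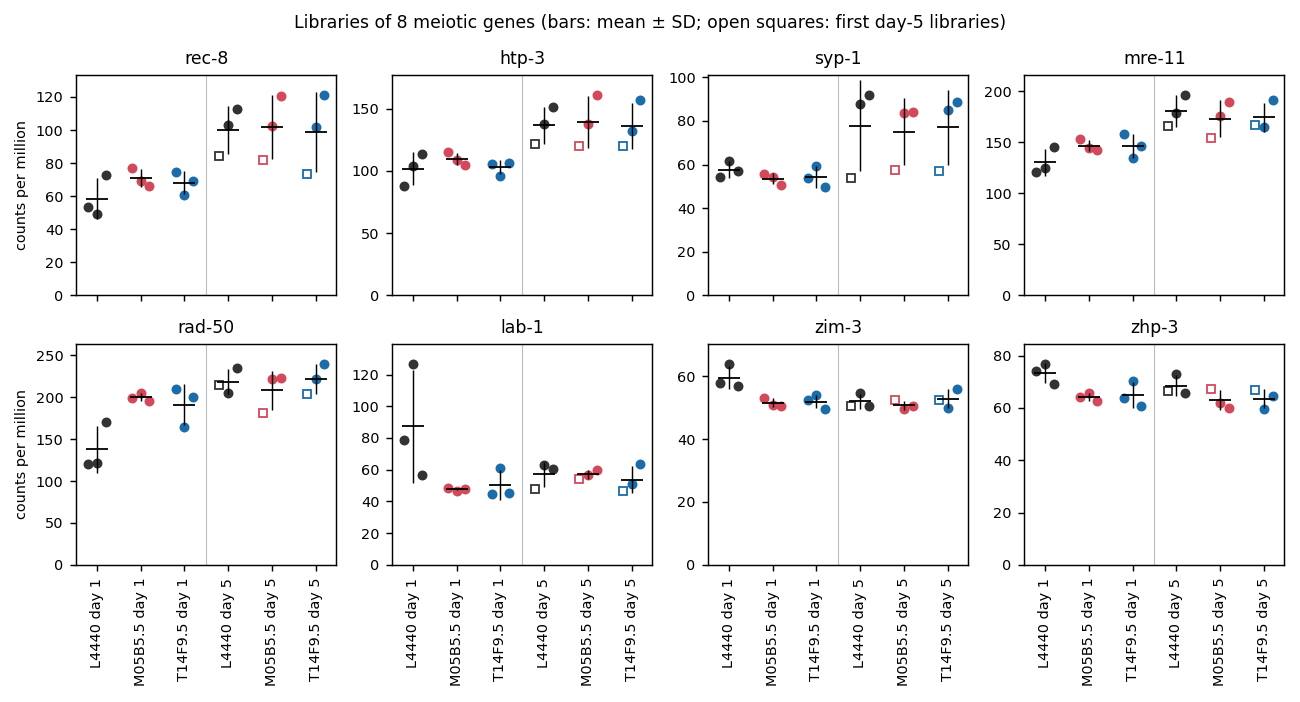
CPM of 8 genes in each library by group, with day 1 on the left and day 5 on the right of each panel, horizontal marks for the group mean, vertical lines for the SD (n = 3) and open squares for each plasmid's first day-5 library. rec-8 reached 121 CPM at day 5, the open squares of syp-1 lay between 53.8 and 57.3 CPM against 83.7 CPM and more in the other day-5 libraries, lab-1 was highest in L4440 day-1 library 2 (127 CPM), and zhp-3 stayed between 59.6 and 76.8 CPM.

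The 5 rises in L4440 depended on which libraries were used. Of 19 other fits, rec-8 and rad-50 passed in 11, scc-3 in 10, mre-11 in 9 and htp-3 in 8. Leaving out L4440 day-1 library 3 raised the count of the 36 genes that passed to 24 (21 higher and 3 lower, beside 19.7% and 17.2% of all genes), and leaving out day-1 library 1 or 2, or day-5 library 2 or 3, lowered it to 0. Without day-1 library 2, 12 were higher and 0 lower at an unadjusted p under 0.05, beside 13.6% and 11.4% of all genes, with rec-8 at 0.67 ± 0.22, scc-3 at 0.50 ± 0.18, htp-3 at 0.44 ± 0.15, mre-11 at 0.44 ± 0.12 and rad-50 at 0.59 ± 0.15. Without day-5 library 1 the count was 10, all higher, beside 7.17% of all genes. The first day-5 library was the lowest of its group for 27 of the 36 genes in L4440, 19 in M05B5.5 and 17 in the libraries labelled T14F9.5, beside 39.5%, 42.0% and 39.6% of all genes. It was the highest for 5, 10 and 9 genes, beside 43.9%, 42.5% and 42.1%. For 21, 23 and 18 genes, in that order, both other day-5 libraries lay above every day-1 library of the plasmid, beside 25.8%, 32.6% and 24.4% of all genes. For 1, 5 and 0 genes both lay below, beside 27.3%, 34.5% and 27.4%.

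The age comparisons were therefore repeated without each plasmid's first day-5 library and without L4440 day-1 library 2. These 4 libraries were singled out from the same counts, so the repeat is no independent evidence. It kept L4440 day-1 library 1, whose slope with gene length was -0.243. Of 36 genes 12 then rose in L4440, 14 in M05B5.5 and 13 in the libraries labelled T14F9.5, and 0 fell, while 14.1%, 16.2% and 13.3% of all 14884 genes tested in this fit rose and 16.5%, 15.4% and 14.7% fell. The shares of the 36 that rose were 33.3%, 38.9% and 36.1%. Of the 30 germ line genes 30%, 13.3% and 16.7% rose and 0%, 3.33% and 0% fell. Their medians were 0.28, 0.13 and 0.20, beside 0.25, 0.27 and 0.25 for the 36. Of 59 other meiotic genes 22%, 28.8% and 28.8% rose and 6.78%, 3.39% and 1.69% fell. The rise in L4440 was thus not particular to the 36 genes. 10 of the 36 genes (27.8%) rose in all 3 plasmids, beside 8.17% of all genes. They were the cohesin genes rec-8, coh-3 and scc-3, the axis genes htp-1, htp-2 and htp-3, the synapsis gene syp-1, the kinase gene plk-2 and the repair genes mre-11 and rad-51. coh-4, him-3 and zim-2 rose in 2 plasmids, and syp-4, him-5 and rad-50 in 1. The other 20, the 4 crossover genes among them, passed in none.

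In that fit syp-1 had log2 fold changes of 0.70 ± 0.10 (SE) in L4440, 0.67 ± 0.092 in M05B5.5 and 0.70 ± 0.092 in the libraries labelled T14F9.5, and rec-8 of 0.79 ± 0.15, 0.67 ± 0.14 and 0.73 ± 0.14. The values of htp-3 were 0.53 ± 0.13, 0.47 ± 0.12 and 0.51 ± 0.12. Other genes differed little in all 3: zhp-3 was at -0.041 ± 0.10, -0.056 ± 0.094 and -0.05 ± 0.094, air-2 at -0.086 ± 0.12, 0.013 ± 0.11 and -0.059 ± 0.11, and brd-1 at 0.042 ± 0.10, -0.14 ± 0.089 and -0.022 ± 0.089. Several genes that had been wide in L4440 narrowed, as him-1 to 0.25 ± 0.17 and chk-2 to 0.15 ± 0.28. No interaction of age with plasmid passed in this fit either.

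**Figure D3:**
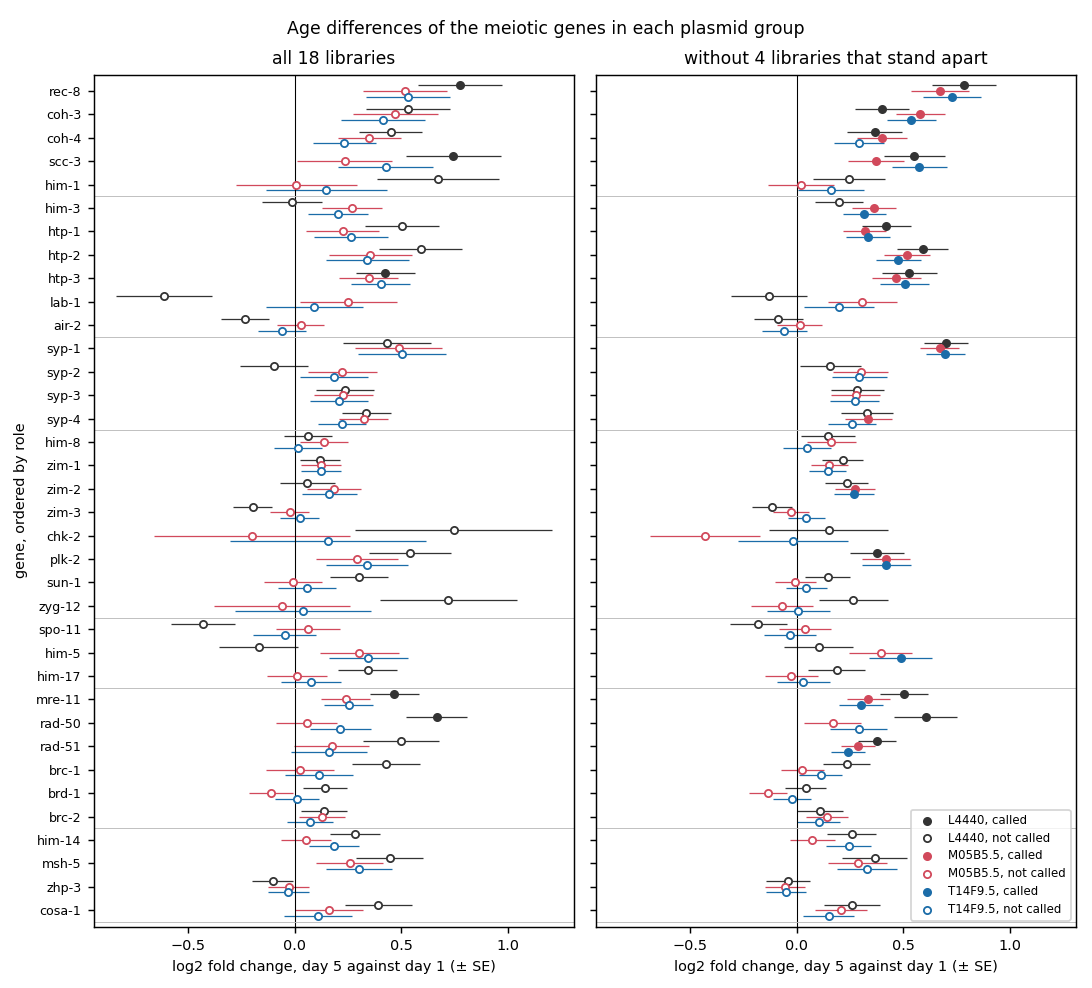
Log2 fold change of day 5 against day 1 (x axis, bars are the SE of the fit) for each of the 36 genes (y axis, by role) in L4440, M05B5.5 and the libraries labelled T14F9.5, with all 18 libraries on the left and without 4 libraries that stand apart on the right; filled points have an adjusted p under 0.05. The left panel holds 5 filled points, all of L4440, and the right panel 12 for L4440, 14 for M05B5.5 and 13 for T14F9.5.

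Summed levels of some somatic gene lists also differed between these day-5 libraries. The summed level of 9 body wall muscle genes, none of them at 0 in any library, lay between 1638 and 2370 CPM in all day-1 libraries and between 2156 and 2355 CPM in the first day-5 libraries, but between 699 and 943 CPM in the other day-5 libraries. The sum of 8 epidermis genes, all detected in every library, was 495 to 969 CPM at day 1, 280 to 417 CPM in the first day-5 libraries and 46.2 to 105 CPM in the others. The epidermis sum did not speak for each of its genes: in the fit without the 4 libraries 2, 4 and 2 of the 8 fell in L4440, M05B5.5 and the libraries labelled T14F9.5, and in the last 4 of the 8 were higher at day 5 (median 0.0091). The sum of the neuron genes was 270.0 to 326 CPM at day 1, 319 to 331 CPM in the first day-5 libraries and 299 to 325 CPM in the others. In the fit without the 4 libraries 4, 5 and 5 of 8 early embryo genes fell, in the same order of plasmids, and 2 rose in each. Of 33 sperm genes tested there 2, 13 and 1 fell and 3, 5 and 5 rose. Of all genes 16.5%, 15.4% and 14.7% fell and 14.1%, 16.2% and 13.3% rose. The part of these lists in the differences of the meiotic genes was not tested. A list of 30 germ line genes outside meiosis, such as the Notch receptor glp-1 and the P granule helicase glh-1, was detected in full in every library and summed to 6693 to 13225 CPM in L4440 at day 1 and to 12831 to 14518 CPM at day 5. In M05B5.5 the germ line sum was 13039 to 13800 CPM at day 1 and 12314 to 14036 CPM at day 5, and in the libraries labelled T14F9.5 it was 9976 to 13994 CPM and 12484 to 14090 CPM. The sum of 23 oocyte and eggshell genes was 15190 to 22130 CPM at day 1 and 22406 to 23795 CPM at day 5 in L4440. In L4440, 8 of the 30 germ line genes rose with age and 0 fell, with a median log2 fold change of 0.57, and in the other plasmids 0 passed with edgeR or DESeq2 (medians 0.11 and 0.14, with 1 and 2 higher at an unadjusted p under 0.05). DESeq2 called 14 of the 30 higher in L4440.

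The meiotic genes were also set against the germ line list by scaling each library to it. Without the 4 libraries, a combination added after seeing the data, 3 genes rose in L4440, 7 in M05B5.5 and 3 in the libraries labelled T14F9.5, beside 5.83%, 9.84% and 6.03% of all genes, and 0 fell, beside 13.8%, 9.11% and 10.7%. The median of all genes stood at -0.21, 0.0087 and -0.086 on this scale and that of the 36 at 0.061, 0.29 and 0.14. The 30 germ line genes themselves had medians of 0.12, 0.15 and 0.11, so the median of the 36 was the lower of these in L4440. Of those 30 genes 3, 5 and 4 rose (10%, 16.7% and 13.3%) and 0 fell. Their summed count defines this scale, so their medians and calls on it are partly set by it and are no independent yardstick. The shares of the 36 that rose were 8.33%, 19.4% and 8.33%. rec-8 and scc-3 passed in all 3 plasmids on this scale, and rec-8 had log2 fold changes of 0.61 ± 0.14, 0.68 ± 0.12 and 0.62 ± 0.12. rad-50 passed in L4440, coh-3, htp-2, htp-3, syp-1 and plk-2 in M05B5.5 and htp-3 in the libraries labelled T14F9.5.

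**Figure D4:**
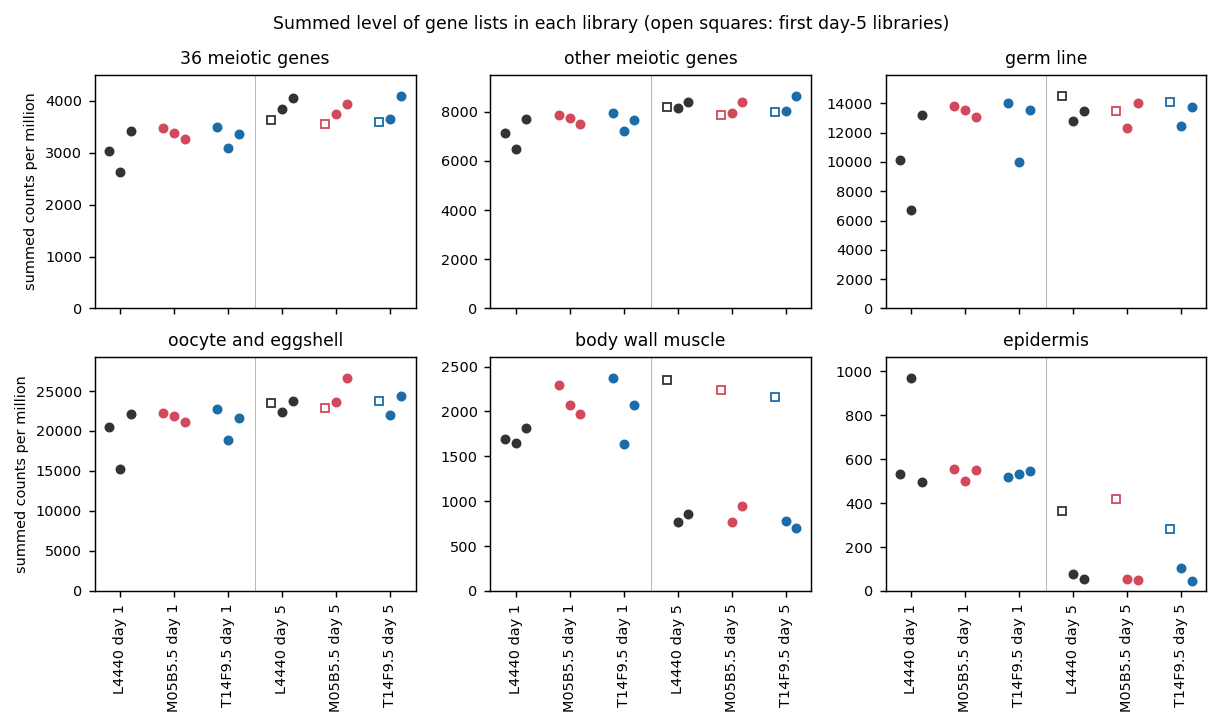
Summed CPM (y axis) of the 36 meiotic genes and of 5 gene lists in each library, by group, with open squares for each plasmid's first day-5 library. The 36 genes summed to between 2621 and 4099 CPM, lowest in L4440 day-1 library 2. The sums of the body wall muscle and of the epidermis genes were lower in day-5 libraries 2 and 3 than in any other library.

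At day 1 the plasmids were compared with L4440 to ask whether lowering hlh-2, or the treatment labelled T14F9.5, goes with a difference in meiotic transcripts. With edgeR 0 of the 36 genes passed in either comparison, as did 0% of all genes. For M05B5.5, 5 genes were higher and 7 lower at an unadjusted p under 0.05, beside 15.2% and 16.6% of all genes, and the groups did not overlap for 7 higher and 10 lower genes, beside 21% and 20.3% of all genes. DESeq2 called 1 higher and 4 lower, beside 9.82% and 10.9% of all genes. For the libraries labelled T14F9.5, 1 gene was higher and 5 lower at an unadjusted p under 0.05 (10.5% and 12.3% of all genes), 1 higher and 2 lower did not overlap (8.56% and 8.35%), and DESeq2 called 1 higher and 2 lower (5.77% and 3.45%). Without L4440 day-1 library 3, 12 genes were called higher and 5 lower for M05B5.5, beside 18.3% and 15.4% of all genes, and 7 and 4 for T14F9.5, beside 14.6% and 11.4%, by edgeR. The median log2 fold changes over all libraries were 0.10 and 0.06. Both comparisons use the same L4440 libraries, and M05B5.5 shares no lane with L4440 at day 1, so lane and plasmid cannot be told apart there. Scaled to the germ line list, 11 of the 36 genes were lower in M05B5.5 beside 22.4% of all genes, and 0 in the libraries labelled T14F9.5. The median of all genes then stood at -0.55 and -0.42 and that of the 36 at -0.38 and -0.29. The sum of the germ line genes was lower in L4440 day-1 libraries 1 and 2 than in any M05B5.5 library, and its part in these differences was not tested.

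The widest values pointed both ways. lab-1 stood at 48.6, 46.8 and 48.1 CPM in M05B5.5 and 44.8, 61.3 and 45.2 CPM in the libraries labelled T14F9.5, against 78.8, 127 and 56.5 CPM in L4440. Its log2 fold changes were -0.87 ± 0.23 (adjusted p = 0.0709) and -0.79 ± 0.23 (adjusted p = 0.146). spo-11 stood at 55.2, 51.1 and 54.1 CPM in M05B5.5 and 71.4, 98.1 and 60.7 CPM in L4440, without overlap, a log2 fold change of -0.52 ± 0.15 (adjusted p = 0.0709). him-5 was at -0.51 ± 0.19 in M05B5.5 and -0.55 ± 0.19 in the libraries labelled T14F9.5, and syp-2 at -0.46 ± 0.16 and -0.44 ± 0.16. On the higher side, rad-50 stood at 199.6, 205 and 196 CPM in M05B5.5 and 121, 122 and 170.2 CPM in L4440, also without overlap, at 0.54 ± 0.14 on the log2 scale (adjusted p = 0.0709). chk-2 was at 0.79 ± 0.46 and zyg-12 at 0.72 ± 0.32. Without L4440 day-1 library 2 these were smaller, chk-2 at 0.33 ± 0.32 and zyg-12 at 0.32 ± 0.16, and so were lab-1 at -0.50 ± 0.17 (-0.43 ± 0.17 in the libraries labelled T14F9.5) and spo-11 at -0.30 ± 0.11 in M05B5.5, while rad-50 was at 0.46 ± 0.15. him-5 was then at -0.39 in M05B5.5 and -0.44 in the libraries labelled T14F9.5, and syp-2 at -0.36 and -0.35. In that fit 0 of the 36 genes passed in either comparison, as did 0.00669% and 0% of all genes. At an unadjusted p under 0.05, 1 was higher and 4 lower for M05B5.5, beside 8.52% and 6.66% of all genes. For T14F9.5 1 was higher and 3 lower, beside 5.61% and 4.39%. For zyg-12 the control values were 161, 53.5 and 224 CPM and the M05B5.5 values 239, 245 and 236 CPM.

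By role, all 5 cohesin genes were positive in both day-1 comparisons, with medians of 0.28 for M05B5.5 and 0.22 for the libraries labelled T14F9.5. With upper-quartile factors 4 of 5 were positive in each, and scaled to the germ line list 2 of 5. Without L4440 day-1 library 2, coh-3 (-0.16 and -0.17) and coh-4 (-0.044 and -0.038) were negative in both comparisons. rec-8, scc-3 and him-1 stayed positive there. With an offset that removes the length trend of every library, described below, only him-1 was positive (0.014 and 0.10). The smallest cohesin difference was that of coh-3, 0.066 ± 0.20 in M05B5.5. The 4 synapsis genes were all negative in M05B5.5 with a median of -0.08, from syp-2 down to syp-3 at -0.019 ± 0.14. The axis genes had medians of -0.11 in both, since htp-1 (0.27 ± 0.17 in M05B5.5), htp-2 and htp-3 were positive and him-3 (-0.33 ± 0.14), lab-1 and air-2 (-0.32 ± 0.11) negative. The repair genes had medians of 0.25 and 0.24, with rad-51 at 0.33 ± 0.18 and brc-2 at -0.025 ± 0.11 in M05B5.5. The 4 crossover genes lay between zhp-3 at -0.19 ± 0.10 and cosa-1 at 0.22 ± 0.16. The pairing centre genes him-8, zim-1, zim-2 and zim-3 were negative in M05B5.5, from -0.10 ± 0.095 for zim-1 to -0.21 ± 0.092 for zim-3. Without L4440 day-1 library 2, htp-1 was at 0.062, rad-51 at 0.10 and cosa-1 at 0.040 in M05B5.5. On the lower side him-3 was then at -0.26, air-2 at -0.21, zhp-3 at -0.16, zim-1 at -0.075 and zim-3 at -0.16.

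These day-1 differences went with the length of the genes. Across the 36 genes Spearman's rho between exon length and the log2 fold change of M05B5.5 against L4440 was 0.55, and across all genes with a length it was 0.66, as a description of genes that share the same libraries. The 12 shortest genes, from 869 to 1425 bases, had a median of -0.17, the 12 in the middle 0.11 and the 12 longest, from 2358 to 4216 bases, 0.27. Without L4440 day-1 library 2 the rho over the 36 genes was 0.66 and the 3 medians were -0.15, 0.011 and 0.16. L4440 day-1 library 1, with a slope of -0.243, stayed in that fit. After the length trend of every library was removed through an offset the rho was -0.24, and lab-1 stood at -0.51. For the libraries labelled T14F9.5 the rho values were 0.51, 0.53 and -0.22 in the same order, and for age in L4440 0.58, 0.62 and -0.28. The age comparisons that use no L4440 library gave -0.12 in M05B5.5 and 0.27 in the libraries labelled T14F9.5 with all libraries, and -0.0087 and 0.18 across all genes. With the offset the 3 medians for M05B5.5 at day 1 were -0.13, -0.26 and -0.31, from shortest to longest. By edgeR 0 of the 36 genes were then higher and 14 lower at an unadjusted p under 0.05, beside 8.42% and 11.8% of all genes. For T14F9.5 at day 1, 0 were higher and 10 lower, beside 7.09% and 8.12%. In both, 0 of the 36 passed after adjustment, as did 0.00679% and 0% of all genes. With the offset 0 of the 36 genes passed for age in L4440 by edgeR, as did 0% of all genes, and at an unadjusted p under 0.05, 7 were higher and 2 lower, beside 15.9% and 13.9% of all genes. In that fit htp-3 was at 0.0097, mre-11 at 0.021 and rad-50 at -0.078. rec-8, at 0.37, and scc-3, at 0.18, stayed positive.

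**Figure D5:**
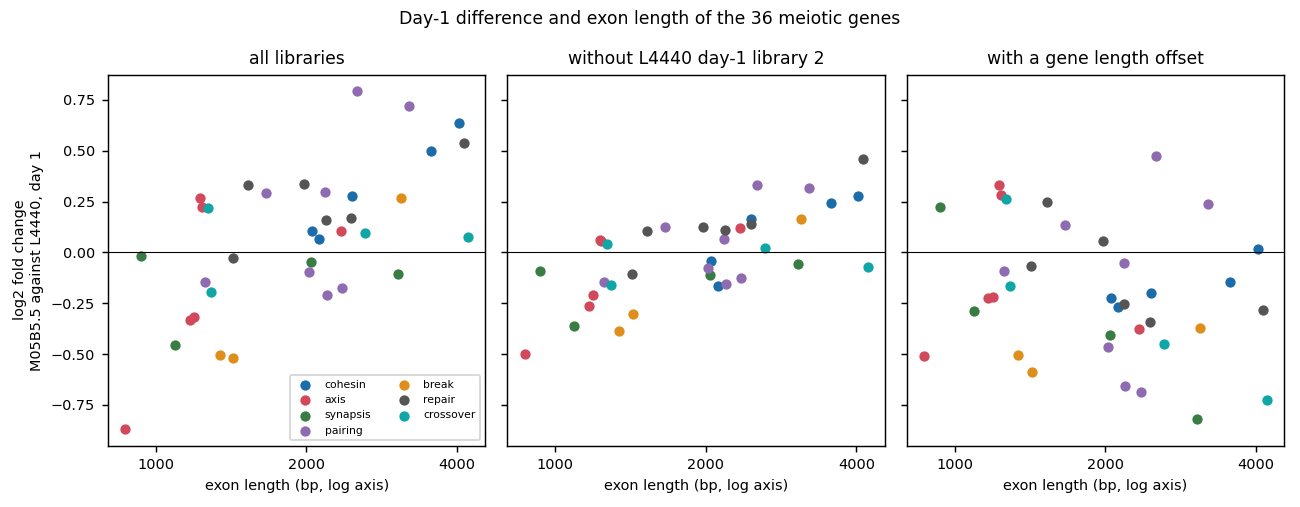
Log2 fold change of M05B5.5 against L4440 at day 1 (y axis) and exon length in bases (x axis, log scale) for the 36 genes, coloured by role, with all libraries, without L4440 day-1 library 2 and with an offset for gene length. lab-1, the shortest at 869 bases, lies lowest at -0.87 in the first panel, and the trend with length turns from 0.55 to -0.24 (Spearman's rho) in the last.

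At day 5 the meiotic genes of the plasmids lay closest together. For M05B5.5 the log2 fold changes against L4440 ran from -0.15 to 0.05 with a median of -0.04, and for the libraries labelled T14F9.5 from -0.15 to 0.11 with a median of -0.05. In each, 0 of the 36 passed with edgeR or DESeq2 and 0 had an unadjusted p under 0.05, while with edgeR 0% of all genes passed and 1.36% and 0.631% had such a p. DESeq2 called 0.0545% of all genes lower for M05B5.5 and 0% otherwise. rec-8 differed by 0.02 ± 0.20 in M05B5.5 and -0.021 ± 0.20 in the libraries labelled T14F9.5, syp-1 by -0.052 ± 0.20 and -0.016 ± 0.20, and scc-3 by -0.012 ± 0.22 and 0.11 ± 0.22. The crossover gene him-14 was at -0.13 ± 0.12 and -0.07 ± 0.12. The standard errors of most genes were between 0.09 and 0.23, so differences of that size were not detectable with these libraries. Within shared lanes the median difference of M05B5.5 from L4440 at day 5 was -0.0704 in lane 5, with 27 of the 36 genes lower beside 50.7% of all genes. That lane holds 1 M05B5.5 library, the first day-5 library that stands apart, and L4440 libraries 1 and 2. It was -0.105 in lane 6, with 33 lower beside 52.5% of all genes, from 1 library of each. T14F9.5 shares no lane with L4440 at day 5. At day 1 it shared lanes 1 and 2 with L4440, as 2 libraries against 1 and 1 against 2, and the median differences were 0.0497 and 0.0830. No lane holds both ages of the same plasmid. Age and lane cannot be told apart in L4440 or in the libraries labelled T14F9.5. In M05B5.5 the lanes of the ages are linked only through day-5 libraries labelled T14F9.5, in lanes 4 and 7.

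Whether the age difference depended on the plasmid was tested as an interaction. With edgeR 0 of the 36 genes passed for M05B5.5 or for T14F9.5, as did 0% of all genes, and DESeq2 called 0. At an unadjusted p under 0.05, 2 genes were higher and 1 lower for M05B5.5, beside 7.54% and 5.51% of all genes, and 1 higher and 1 lower for T14F9.5, beside 2.88% and 2.31%. The widest interactions for M05B5.5 were those of lab-1, 0.86 ± 0.32, and chk-2, -0.94 ± 0.65, and without L4440 day-1 library 2 they were 0.50 ± 0.23 and -0.48 ± 0.43. Without L4440 day-1 library 3 edgeR called 2 higher and 2 lower for M05B5.5, beside 5.5% and 8.72% of all genes, and 0 and 1 for T14F9.5, beside 0.555% and 3.45%. The 5 rises seen in L4440 were thus not shown to differ from the values in the other plasmids, and the interaction of rad-50 was -0.61 ± 0.20 for M05B5.5 (adjusted p = 0.380).

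A further list of meiotic and chromosome genes, 59 of whose 60 names were found and all 59 tested, was examined in the same comparisons. In L4440 with age, 11 rose and 1 fell, beside 6.72% and 9.11% of all genes. The largest rises were those of atm-1, a kinase that senses breaks, which stood at 36.5 ± 21.4 CPM at day 1 and 81.9 ± 7.95 CPM at day 5 (SD, n = 3; log2 fold change 1.16 ± 0.33, adjusted p = 0.0368), and of smc-3, the SMC3 arm of the cohesin ring, at 114 ± 61.0 CPM and 235.4 ± 18.6 CPM (1.05 ± 0.30, adjusted p = 0.0369). polq-1, the polymerase of an error-prone repair route, was at 0.85 ± 0.20, adjusted p = 0.0355 and evl-14, the cohesin-associated PDS5, at 0.74 ± 0.21, adjusted p = 0.0366. The gene that fell was dlc-1, a dynein light chain with many uses outside meiosis, at -0.63 ± 0.18, adjusted p = 0.0374. Without L4440 day-1 library 2, 0 of the 59 passed with edgeR. At an unadjusted p under 0.05, 16 were higher and 7 lower, beside 13.6% and 11.4% of all genes. atm-1 was then at 0.81 ± 0.26, smc-3 at 0.69 ± 0.18, polq-1 at 0.78 ± 0.22, evl-14 at 0.50 ± 0.16 and dlc-1 at -0.49 ± 0.18. The list's median over all libraries was 0.19, with 39 of 59 genes higher at day 5. DESeq2 called 18 higher and 3 lower there. With upper-quartile factors 7 rose and 3 fell (median 0.057), and scaled to the germ line list 4 rose and 13 fell (median -0.35). In the other 8 comparisons 0 of 59 passed with edgeR. At an unadjusted p under 0.05, 7 were higher and 0 lower for age in M05B5.5, 7 and 1 for age in the libraries labelled T14F9.5, and 13 and 12, and 10 and 8, for M05B5.5 and T14F9.5 at day 1. At day 5 it was 0 for both, and for the interactions 1 and 7 for M05B5.5 and 1 and 2 for T14F9.5. DESeq2 called 6 higher and 5 lower for M05B5.5 at day 1, 1 higher for T14F9.5 at day 1 and 0 in the other 6. Without the 4 libraries 13 rose and 4 fell in L4440, 17 and 2 in M05B5.5 and 17 and 1 in the libraries labelled T14F9.5.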

How the data were processed

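RNA of whole hermaphrodites was sequenced in 18 libraries, 3 for each of 6 groups of plasmid and age, with the TruSeq RNA kit of version 2 (a kit that does not mark strand), per the labels' protocols. Reads were handled with bcl2fastq 1.8.4, STAR 2.4.1d and featureCounts 1.4.6-p4 on WBcel235, per the submitters' processing notes. The deposited table of raw counts for 46748 genes was used, all of whose value columns belong to 1 of the 18 samples. The deposited table of RPKM values was not used. Identifiers were given names from the Ensembl 115 annotation of WBcel235.

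Genes were kept by filterByExpr with a minimum count of 10 and fitted in 1 model of all 18 libraries with edgeR 4.0.16 (robust quasi-likelihood, TMM factors, R 4.3.3), with adjustment over all genes tested. CPM are scaled by TMM factors, and log2 CPM have a prior count of 2. In simulated counts of 14537 genes for the day-1 comparison of M05B5.5 with L4440, 10% of 50 genes changed 1.5-fold were recovered, 50% of 50 changed 2-fold and 94% of 50 changed 4-fold. There were 6 false calls. The simulated counts held no length trend and no library that stood apart, so these shares need not hold for the real libraries. DESeq2 1.42.0 and other scalings, filters and sets of libraries served as alternatives. Members, roles, lists and doubted libraries were chosen with earlier results of these data known. All 36 genes are reported, by role the ones that passed or else those with the largest and smallest change, and of the other meiotic genes up to 4 that passed with the largest change.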

Additional observations from a re-analysis of the deposited data

How the results depend on the processing

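Counts of the 36 genes that passed are given here by alternative. Where the share of all genes is not given above, a count shows only how far the alternative moved it. Such a count is no result about the 36 genes, since all genes may have moved alike. For age in L4440, where 5 passed, the count was 17 with DESeq2, 2 with no filter on low counts, 8 with a minimum count of 50, 0 with the gene length offset, 0 with the compared groups alone, 0 without the pair of libraries with the same index and lane, 11 without the first day-5 libraries, 12 also without L4440 day-1 library 2, 17 with a term for the first day-5 libraries, and 3 with germ line scaling and without those 4 libraries, a combination chosen after seeing the data. Leaving out 1 library at a time gave 0 to 24. The scaling factors RLE and upper quartile gave 7 each and the germ line list 5, all 5 of them lower. For age in M05B5.5 and T14F9.5, where 0 passed, the count was 3 and 3 without the first day-5 libraries, 14 and 13 without the 4 libraries, 8 and 5 with the term, and 7 and 3 with germ line scaling and without the 4, and it stayed at 0 when 1 library was left out. For M05B5.5 at day 1 it was 5 with DESeq2, 11 with germ line scaling, 6 with the term for the first day-5 libraries and 0 to 17 with 1 library left out. For T14F9.5 at day 1 it was 3 with DESeq2 and 0 to 11 with 1 library left out. The interactions gave 0 to 4 for M05B5.5 and 0 to 1 for T14F9.5 with 1 library left out, and the comparisons at day 5 gave 0 under every alternative run. Of the genes that passed for age in L4440, htp-3 (-0.11) and mre-11 (-0.061) turned negative with germ line scaling and rad-50 (-0.078) with the gene length offset. The median of the 36 genes for age ranged from -0.14 to 0.51 in L4440, from 0.15 to 0.50 in M05B5.5 and from 0.053 to 0.25 in T14F9.5. Other than by the construction of these alternatives, the cause of the differences was not tested. Lane as a term could be fitted for M05B5.5 and T14F9.5 at day 5, T14F9.5 at day 1, age in M05B5.5 and the interaction of T14F9.5, and 0 passed. No paired analysis was possible because the labels carry no replicate numbers. The libraries that stand apart were singled out with earlier results of these data known.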
